A study of Mus musculus with 12 samples.

Results

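The 10 genes described here are p53 targets of signalling, metabolism and other functions, named as a list: Trp53i11, Dcxr, Abhd4, Ak1, Phlda3, Zmat3, Plk2, Plk3, Sulf2 and Pml. They were found by name (TRP53I11, DCXR, ABHD4, AK1, PHLDA3, ZMAT3, PLK2, PLK3, SULF2 and PML in the deposited expression tables), and all 10 were in both tables, out of 11481 genes in either. The libraries came from primary mouse embryonic fibroblasts (MEFs) of a hybrid 129/B6 background. One genotype was wild type (WT, lincRNA-p21+/+) and the other was a knockout (KO, lincRNA-p21-/-) of lincRNA-p21, a long noncoding RNA that p53 induces and that lies next to Cdkn1a. Both genotypes were sampled after mock treatment and after doxorubicin for 24 hours at a dose that the labels state as 0.5 mM, which made 4 groups of 3 biological replicates. The age of the embryos and the number of cultures behind a replicate were not given in the sources used here. LincRNA-p21 was not analysed here, and no check of genotype on it was made.

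The transcription factor p53 is held at a low level by the ubiquitin ligase Mdm2 and is stabilised when DNA is damaged, for example by doxorubicin, an anthracycline that traps topoisomerase II on DNA. Stabilised p53 binds response elements near its targets, which halt the cell cycle, repair DNA, cause cell death or, like the genes here, act on signalling and metabolism. Phlda3 is a small pleckstrin-homology protein that competes with the kinase Akt for membrane lipids, Plk2 and Plk3 are stress-responsive polo-like kinases, and Zmat3 is a zinc finger protein that binds RNA. Dcxr is a reductase of dicarbonyls and L-xylulose, Ak1 is the cytosolic adenylate kinase that interconverts adenine nucleotides, and Abhd4 is a hydrolase of N-acyl phospholipids. Sulf2 is an extracellular enzyme that removes sulfate from heparan sulfate, Pml is the scaffold of PML nuclear bodies, and Trp53i11 is a membrane protein named for its induction by p53.

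Expression was given as CPM, in which the reads of a gene are scaled to the total of its library. Library totals ran from 14327048 to 20511907 reads. The lowest value among the 10 genes, 7.75 CPM for Trp53i11 in WT mock number 3, rested on 134 reads, and the highest, 809 CPM for Sulf2 in KO doxorubicin number 3, on 16407 reads. Of 12 fibroblast markers 11 were listed, with summed levels of 48397 to 65747 CPM in mock and 30341 to 40784 CPM in doxorubicin libraries. With doxorubicin 5 of the 11 fell in WT and 4 in KO, beside 21.4% and 14.6% of all genes. Among markers of other cells, Epcam, Cdh1, Pecam1, Cdh5 and Ptprc were not among the listed genes. The listed epithelial markers summed to 6.43 to 37.4 CPM in mock libraries (2 of 8 listed) and to 87.7 to 263 CPM after doxorubicin (3 of 8), and the macrophage marker Cd68, the only one of 6 blood markers listed, stood at 2.42 to 58.3 and 45.4 to 126 CPM. Endothelial markers listed were Kdr and Emcn before treatment (2 of 6) and Kdr alone after doxorubicin (1 of 6). The receptor gene Kdr rose from 4.11 ± 0.384 to 30.2 ± 0.594 CPM in WT and from 4.67 ± 2.76 to 28.3 ± 5.82 CPM in KO (SD, n = 3 each). The limma adjusted p for Kdr was 5.98e-05 in WT and 0.000179 in KO. Emcn, with mock means of 3.07 (WT) and 2.24 (KO) CPM, was missing after doxorubicin, so its response was not tested. Of 6 neural markers Tubb3, Map2 and Nes were listed, with sums of 229.7 to 532 CPM in mock and 414 to 634 CPM in doxorubicin libraries. With doxorubicin 0 of the 3 passed in either genotype without the replicate block. With it 2 rose in WT and 1 in KO, beside 33.6% and 29.6% of all genes. Of 6 skeletal muscle markers 1, Acta1, was listed, at 25.9 to 407 CPM in mock and 4.34 to 131 CPM in doxorubicin libraries. Its KO minus WT log2 difference was -1.20 in mock and -1.39 after doxorubicin. With the replicate number as a block Acta1 passed as lower in KO in both treatments, and without the block it passed in neither. Its log2 difference with doxorubicin was -2.44 in WT and -2.63 in KO, which passed in both genotypes only with the block. The part of all these markers in the results was not tested. In cultures measured in bulk, fewer cells that express a gene and less RNA per cell cannot be told apart.

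Doxorubicin raised most of the 10 genes in both genotypes, over a wide range of sizes. Differences were tested with limma on log2(CPM + 1) and called at a Benjamini-Hochberg adjusted p under 0.05. In WT cells 7 of 10 rose and 0 fell, while of all 10292 genes 25.9% rose and 21.4% fell. In KO cells 8 of 10 rose and 0 fell, while 19.9% of all genes rose and 14.6% fell. Median centring of the libraries turned the split over all genes from 2664 higher and 2199 lower to 2202 and 2944 in WT, and from 2052 and 1500 to 1669 and 2027 in KO. It called 6 of the 10 in each genotype. With the replicate number as a block 7 and 8 of the 10 rose, beside 33.6% and 29.6% of all genes. The treated libraries lay wholly above the mock ones for 6 of the 10 in WT and 8 in KO, beside 29.4% and 27.1% of all genes. The median difference over the 10 genes was 0.99 on the log2 scale in WT and 0.95 in KO, beside 0.01 and 0.04 over all genes.

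Trp53i11 had the largest response of the 10. Its level was 15.4, 12.4 and 7.75 CPM in the WT mock libraries (numbers 1, 2 and 3) and 132, 120 and 160 CPM in WT doxorubicin. In KO cells it went from 14.7, 9.75 and 9.81 CPM to 69.9, 85.2 and 113 CPM. Treated and mock libraries did not overlap in either genotype. The ratio of group means was 11.6 in WT and 7.83 in KO. On the log2 scale the rise was 3.47 in WT (SE 0.25, limma adjusted p = 7.93e-06) and 2.86 in KO (SE 0.25, adjusted p = 3.69e-05), and in each genotype it ranked 33 of 10292 genes from the highest rise down.

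The metabolic enzymes rose as well. Dcxr stood at 27.8, 16.6 and 31.9 CPM in the WT mock libraries and 155, 96.4 and 165 CPM in WT doxorubicin, and at 31.8, 16.7 and 37.0 CPM in KO mock and 166, 142 and 182 CPM in KO doxorubicin. Every treated library lay above every mock library, with a ratio of means of 5.45 in WT and 5.74 in KO. The log2 rise was 2.41 in WT (SE 0.31, limma adjusted p = 0.000151) and 2.54 in KO (SE 0.31, adjusted p = 0.000225). Abhd4 was at 101 to 135 CPM in WT mock, 111 to 136 CPM in KO mock, 302 to 474 CPM in WT doxorubicin and 309 to 367 CPM in KO doxorubicin. The treated and mock ranges of Abhd4 were apart, with log2 rises of 1.65 in WT (SE 0.16, limma adjusted p = 3.64e-05) and 1.45 in KO (SE 0.16, adjusted p = 0.000157). Ak1 rose by about the same factor in both genotypes, from 177 ± 13.1 to 354 ± 48.2 CPM in WT and from 174 ± 23.4 to 366 ± 16.9 CPM in KO (SD, n = 3 each). That is a log2 rise of 0.99 in WT (SE 0.13, limma adjusted p = 0.000139) and 1.07 in KO (SE 0.13, adjusted p = 0.000198), again with no overlap between treated and mock libraries.

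The level of Pml was 97.9, 73.6 and 87.0 CPM in the WT mock libraries and 228, 169 and 329 CPM in WT doxorubicin. In KO cells it was at 81.9, 65.2 and 78.5 CPM in mock and 169, 153 and 256 CPM after doxorubicin. Treated libraries lay above all mock libraries in both genotypes. The log2 rise was 1.44 in WT (SE 0.24, limma adjusted p = 0.000708) and 1.31 in KO (SE 0.24, adjusted p = 0.00207). Of 10 other components of PML nuclear bodies that were measured, 4 rose and 3 fell in WT and 3 rose and 2 fell in KO. Over all genes 25.9% rose and 21.4% fell in WT, and 19.9% and 14.6% in KO. In each genotype 6 of the 10 components lay below 0, with median log2 differences of -0.22 in WT and -0.15 in KO. Daxx, a histone chaperone of these bodies, was among those that rose (log2 0.51 in WT, limma adjusted p = 0.00891, and 0.46 in KO, adjusted p = 0.0204). The mean level of Cbx5, another component, went from 157 to 69.3 CPM in WT and from 185 to 89.2 CPM in KO. Pml is also a known interferon-stimulated gene. Of 22 such genes 12 were listed in mock and 19 after doxorubicin. Those listed only after doxorubicin, such as Usp18 (82.0 ± 17.6 CPM in WT), had no test of the response. Of the 12 such genes found under both treatments, 3 rose in WT and 6 rose and 1 fell in KO with doxorubicin, with median log2 differences of 0.79 and 1.95. In WT mock the 12 summed to 1034.5, 327 and 216 CPM in numbers 1, 2 and 3, so the WT median depends on an uneven baseline. Their part in the level of Pml was not tested.

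The level of Sulf2 was 352, 206 and 338 CPM in the WT mock libraries and 558, 462 and 768 CPM in WT doxorubicin, and 361, 258 and 428 CPM in KO mock and 577, 489 and 809 CPM in KO doxorubicin. The groups did not overlap, although replicates differed widely. The log2 rise was 1.00 in WT (SE 0.27, limma adjusted p = 0.0113) and 0.84 in KO (SE 0.27, adjusted p = 0.0353). The call in WT was lost without WT doxorubicin number 3 (adjusted p = 0.0513). That in KO was lost without KO doxorubicin number 1 or 3 (0.0602 and 0.136) or KO mock number 1 or 2 (0.0685 and 0.127), and with median centring (0.0587). With the replicate number as a block the adjusted p was 2.48e-05 in WT and 0.000136 in KO.

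Zmat3, Phlda3, Plk2 and Plk3 had smaller log2 differences than the genes above. Zmat3 stood at 158, 159 and 206 CPM in the WT mock libraries and 234, 205 and 249 CPM in WT doxorubicin, with the lowest treated library just below the highest mock one. In KO cells it went from 176, 180.0 and 225 CPM to 251, 233 and 268 CPM, without overlap. The log2 rise was 0.40 in WT (SE 0.13, limma adjusted p = 0.02995) and 0.38 in KO (SE 0.13, adjusted p = 0.0493). These calls sit close to the threshold. In WT the call was lost without WT mock number 1 or 2 or WT doxorubicin number 1 or 3 (adjusted p = 0.0685 to 0.104), and in KO it held in 3 of the 12 fits that each left out 1 library (0.0244 to 0.155 over the 12). Median centring of the libraries, which moved the median of all genes in WT from 0.01 to -0.10, gave 0.108 in WT and 0.126 in KO, and quantile normalization 0.0590 and 0.0633. In the fit with the replicate block the adjusted p was 0.00112 and 0.00222.

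Phlda3 passed in KO cells. It was at 216, 212 and 184 CPM in KO mock and 299, 283 and 231 CPM in KO doxorubicin, which did not overlap. The log2 rise was 0.40 (SE 0.12, limma adjusted p = 0.0211), lost without KO mock number 3 (0.0779) or KO doxorubicin number 1 or 2 (0.0758 and 0.0672). In WT it was at 174, 165 and 188 CPM in mock and 219, 187 and 197 CPM after doxorubicin, where the groups overlapped, with a log2 difference of 0.19 (SE 0.12, 95% interval -0.07 to 0.45, adjusted p = 0.199). In blocked fits with 1 pair left out, Phlda3 passed in WT without pair 3 (log2 0.25, limma adjusted p = 0.0438) and missed in KO without pair 1 (0.37, 0.0641). The difference between the genotypes in this response was itself tested and is given below with the interaction.

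Neither polo-like kinase passed in either genotype with all libraries in the fit. Plk2 stood at 589.7, 699.6 and 336 CPM in the WT mock libraries and 598, 723 and 542 CPM in WT doxorubicin, and at 528, 581 and 265 CPM in KO mock and 452, 672 and 454 CPM in KO doxorubicin. Number 3 was the low library of both mock groups. The log2 difference was 0.25 in WT (95% interval -0.46 to 0.96, limma adjusted p = 0.545) and 0.25 in KO (-0.46 to 0.96, adjusted p = 0.577). Plk3 was at 39.4, 36.3 and 26.8 CPM in WT mock, 36.1, 54.4 and 47.3 CPM in WT doxorubicin, 40.6, 31.2 and 22.5 CPM in KO mock and 39.7, 36.8 and 33.2 CPM in KO doxorubicin. Its log2 difference was 0.41 in WT (-0.07 to 0.90, adjusted p = 0.146) and 0.25 in KO (-0.24 to 0.73, adjusted p = 0.420). In the blocked fit without pair 1, Plk3 passed in both genotypes, with log2 rises of 0.68 in WT (limma adjusted p = 0.00430) and 0.39 in KO (0.0466). The intervals from all libraries leave room for a change of nearly 1 log2 unit, so absence of a response is not shown.

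**Figure D1:**
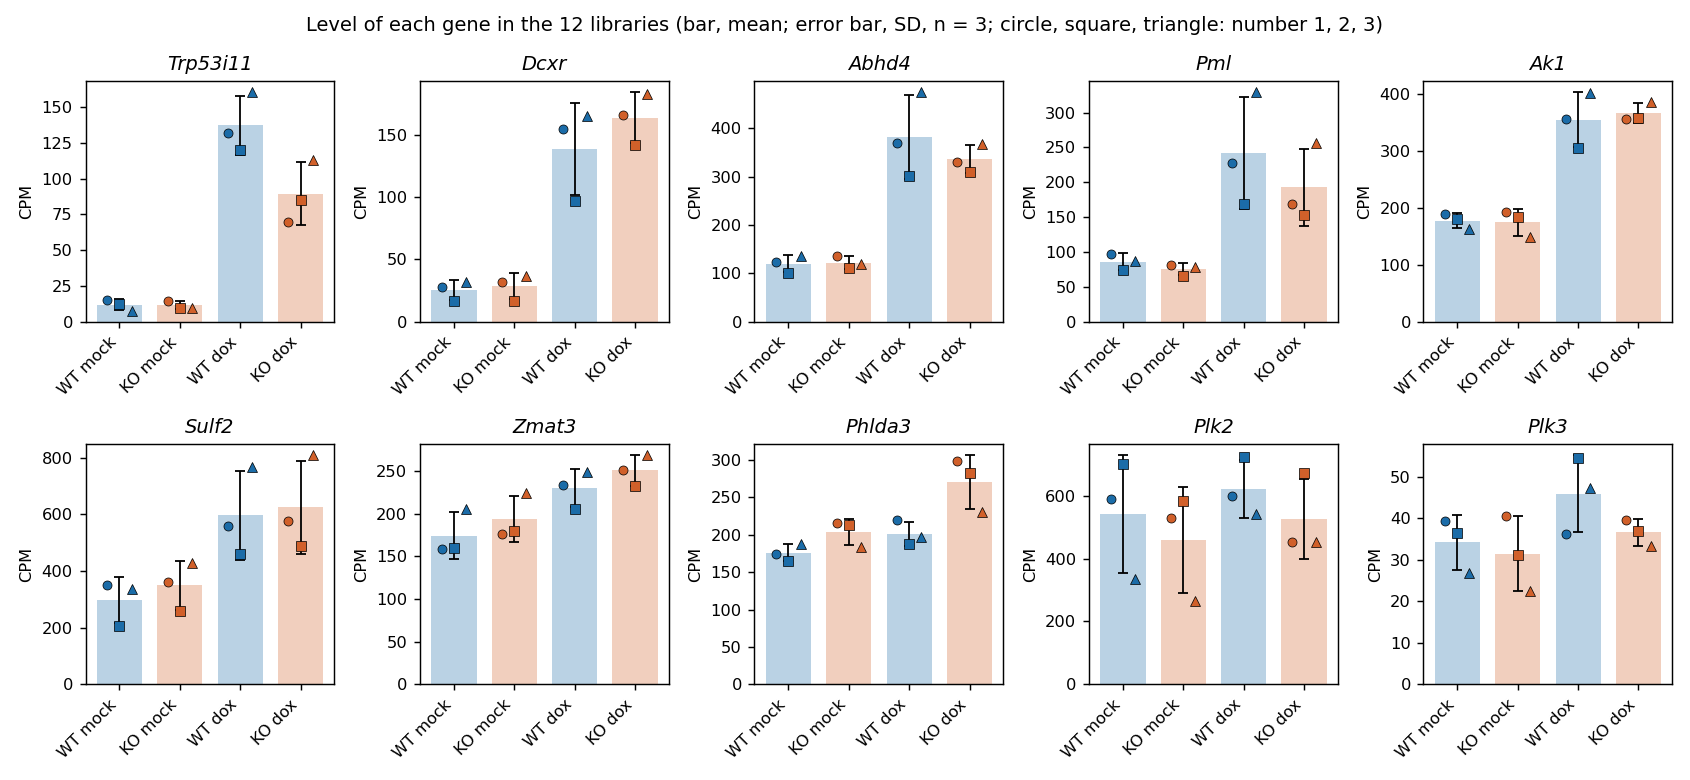
CPM of each of the 10 genes in the 12 libraries, with 1 panel per gene, bars for the group mean, error bars for the SD (n = 3) and symbols for replicate numbers 1, 2 and 3. Trp53i11 and Dcxr rise most with doxorubicin in both genotypes, while the groups of Plk2 and Plk3 overlap.

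**Figure D2:**
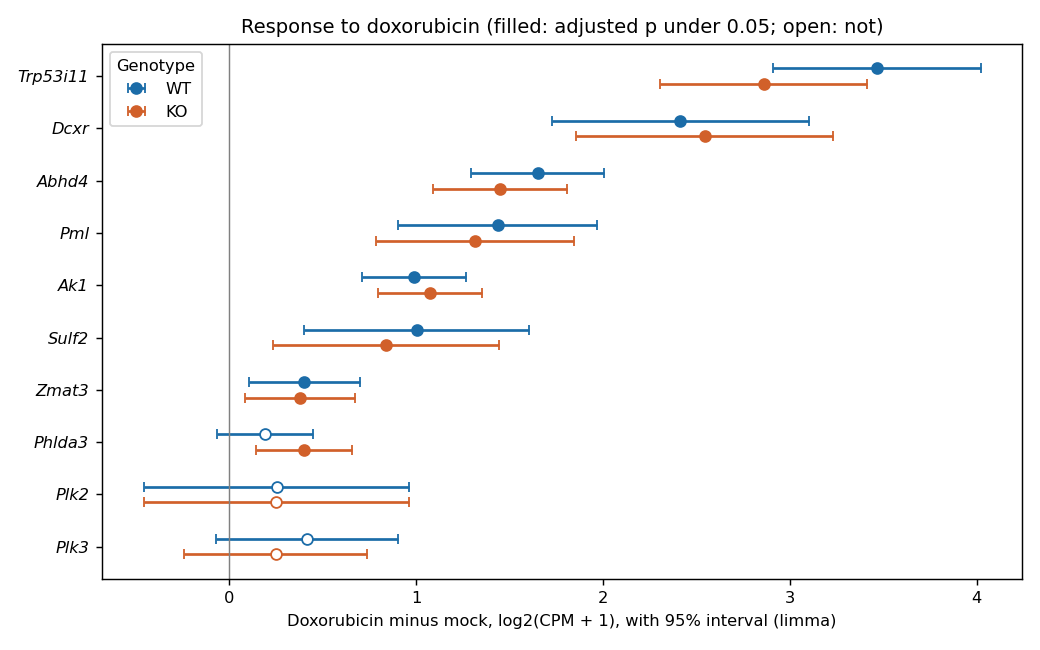
Difference between doxorubicin and mock on the log2(CPM + 1) scale for each gene and genotype, with 95% intervals from limma, where filled points passed and open points did not. The genes run from Trp53i11 (3.47 in WT and 2.86 in KO) down to Plk2 and Plk3, which passed in neither genotype.

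Paralogs of these genes went in both directions. Of 12 measured paralogs 1 rose and 5 fell with doxorubicin in each genotype. Over all genes 25.9% rose and 21.4% fell in WT, and 19.9% rose and 14.6% fell in KO. Plk1 and Plk4, the polo-like kinases of mitosis and centriole duplication, fell, with mean Plk1 levels of 35.2 ± 7.50 CPM for untreated WT and 12.6 ± 13.1 CPM for treated WT (log2 -1.85, limma adjusted p = 0.0244) and at 48.4 ± 15.1 and 4.32 ± 3.21 CPM in KO (log2 -3.34, adjusted p = 0.00175). Sulf1, the other extracellular endosulfatase, fell from 255 ± 48.4 to 164 ± 21.2 CPM in WT and from 287 ± 15.1 to 195 ± 29.9 CPM in KO (SD, n = 3 each), log2 differences of -0.62 and -0.56 with limma adjusted p = 0.00639 and 0.0154. Thus Sulf2 and Sulf1 passed in opposite directions in both genotypes.

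Other p53 targets, 44 genes chosen with earlier results of these data known, gave a frame for the size of these responses. Of the 41 measured under both treatments, 33 rose and 1 fell in WT, with a median log2 difference of 1.13, and 29 rose and 1 fell in KO, with a median of 0.89. The shares over all genes were 25.9% higher and 21.4% lower in WT, and 19.9% and 14.6% in KO. The largest rises in WT were those of Perp, a desmosome-associated membrane protein of apoptosis (9.84 to 232 CPM, log2 4.92), Tap1, an antigen peptide transporter (16.4 to 121 CPM, log2 2.90), and Sfn, which encodes 14-3-3 sigma (19.97 to 121 CPM, log2 2.81). In KO they were those of Perp (15.3 to 239 CPM, log2 3.88), Tap1 (12.0 to 96.7 CPM, log2 2.94) and Lif, a cytokine of the interleukin-6 family (54.8 to 224 CPM, log2 2.15). In WT mock numbers 1, 2 and 3 Perp was at 2.09, 4.51 and 22.9 CPM and Sfn at 12.1, 40.5 and 7.29 CPM. Their WT rises thus rest on uneven baselines. The member that fell in WT was Thbs1, the matrix glycoprotein thrombospondin 1 (17298 to 6760 CPM, log2 -1.37), and in KO it was Polh, a translesion DNA polymerase (27.9 to 18.7 CPM, log2 -0.55). On this scale Trp53i11 exceeded all but Perp in WT and all but Perp and Tap1 in KO, whereas Sulf2, Zmat3, Phlda3, Plk2 and Plk3 lay below the median of the list in both genotypes.

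**Figure D3:**
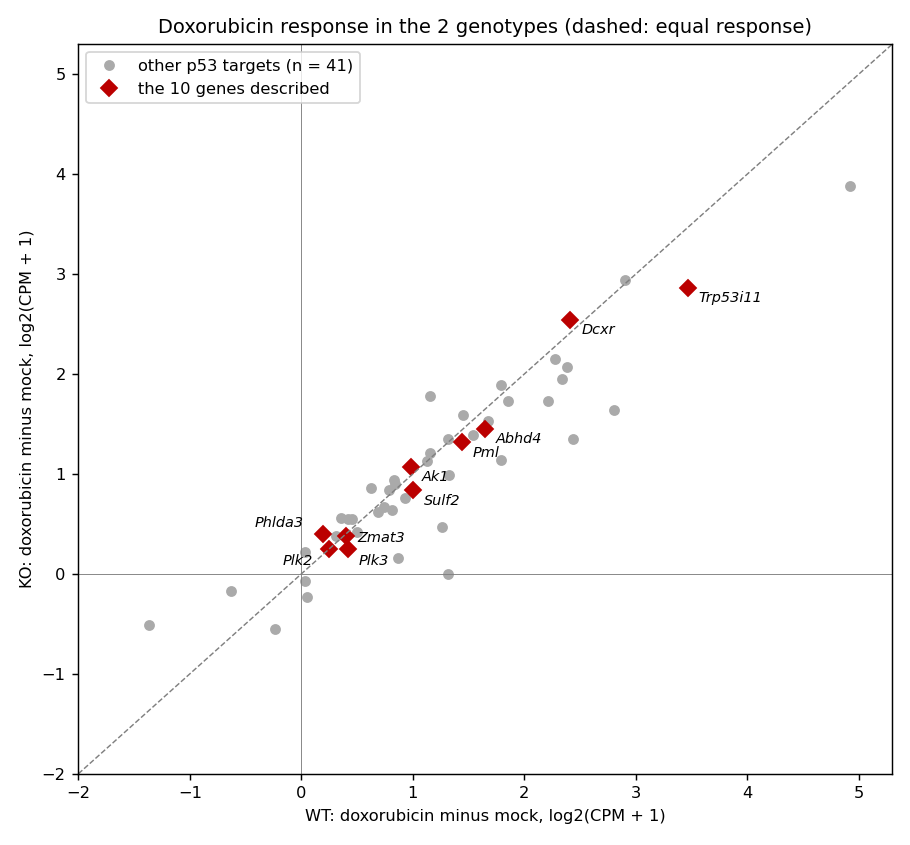
Doxorubicin response in WT (horizontal) against that in KO (vertical), both on the log2(CPM + 1) scale, for the 10 genes (diamonds) and the 41 other p53 targets (circles), with a dashed line of equal response. Trp53i11 sits at 3.47 and 2.86 and Dcxr at 2.41 and 2.54.

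The promoters of 9 of the 10 genes were in the RefSeq promoter table (build GRCm38.p6, 250 bases before to 50 after a start, 14 promoters in all). They were searched for the p53 decamer, the 10-base unit of which p53 response elements hold a pair and which is its own reverse complement, so that both strands were covered. It was found in 2 of the 14 promoters, 14.3%, against 8.36% of all 32851 promoters in the table. A stricter form of the decamer, with CATG at its centre, was found in 0 of the 14 and in 1.93% of all. The 2 matches were in Pml, 144 bases before the start, and in an alternative promoter of Abhd4, 1 base after it, and both held the same letters. They are shown with the decamer in capitals beside Trp53i11, which rose most and held no match. A match is a description of letters and not a binding site, and nothing about p53 follows from a window without one.
Pml, chr9:58249737-58250036, minus strand: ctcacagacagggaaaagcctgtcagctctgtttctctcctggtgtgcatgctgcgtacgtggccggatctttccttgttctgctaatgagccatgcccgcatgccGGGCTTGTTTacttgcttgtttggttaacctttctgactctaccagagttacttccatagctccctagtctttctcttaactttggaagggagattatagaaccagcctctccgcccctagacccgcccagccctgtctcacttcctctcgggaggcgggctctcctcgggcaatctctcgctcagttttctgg
Abhd4, chr14:54259033-54259332, plus strand: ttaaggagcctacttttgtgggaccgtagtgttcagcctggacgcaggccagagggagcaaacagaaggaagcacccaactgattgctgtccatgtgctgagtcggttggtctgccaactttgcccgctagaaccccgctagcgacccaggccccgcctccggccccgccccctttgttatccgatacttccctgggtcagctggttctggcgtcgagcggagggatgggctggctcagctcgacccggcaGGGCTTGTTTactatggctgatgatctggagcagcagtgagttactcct
Trp53i11, chr2:93187298-93187597, plus strand: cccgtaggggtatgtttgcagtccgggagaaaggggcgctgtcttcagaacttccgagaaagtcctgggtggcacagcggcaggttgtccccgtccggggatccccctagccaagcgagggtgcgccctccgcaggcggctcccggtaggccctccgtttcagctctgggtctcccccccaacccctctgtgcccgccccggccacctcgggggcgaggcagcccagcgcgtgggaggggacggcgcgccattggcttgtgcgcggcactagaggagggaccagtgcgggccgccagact

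In mock cells the knockout made no called difference in any of the 10 genes. The limma fit with no block gave no call among 10648 genes (0%), where 440 had an unadjusted p under 0.05, and 0 of the 10 were among these. Same-numbered WT and KO libraries deviated together from their group means, so a fit blocked on that number was run as well. It called 98 genes, 0.92% of all, and again 0 of the 10, of which 4 had an unadjusted p under 0.05. The differences were small, from log2 -0.25 for Plk2 to 0.23 for Sulf2. In KO 5 genes were higher and 5 lower than in WT (median log2 difference 0.01, beside 0.06 over all genes), and WT and KO libraries overlapped for each of the 10, whereas they did not for 9.98% of all genes.

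The direction of the mock difference was the same in all 3 numbered pairs for 5 of the genes. Dcxr, Zmat3 and Sulf2 were higher in KO in each pair, as were 35.3% of all genes, and Plk2 and Pml were lower in each, as were 11.9% of all genes. For Zmat3 the ratio of KO to WT was 1.11, 1.13 and 1.09 in numbers 1, 2 and 3. For Pml it was 0.837, 0.887 and 0.902, and for Plk2 0.896, 0.831 and 0.790. With pair 3 left out of the blocked fit, Phlda3, Zmat3, Plk2 and Pml passed (adjusted p = 0.00390, 0.0397, 0.0195 and 0.0330), with Phlda3 and Zmat3 higher and Plk2 and Pml lower in KO. With pair 1 or pair 2 left out 0 of the 10 passed. Interferon-stimulated genes summed to 1034.5, 327 and 216 CPM in WT mock and 278, 130.3 and 285 CPM in KO mock, lower in KO in numbers 1 and 2 and higher in number 3. Their part in the mock values of Pml was not tested.

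After doxorubicin Trp53i11 and Pml were lower and Phlda3 higher in KO than in WT, in calls that need the replicate block. The limma fit that leaves it out gave 0 calls over 11125 genes (0%). In it 1246 genes had an unadjusted p under 0.05, and 2 of these were Trp53i11 and Phlda3. With the block 25.3% of all genes were called, 11.8% higher and 13.6% lower. Of the 10, 1 rose and 2 fell, a share near that background. The 10 split into 5 higher and 5 lower than WT, with a median log2 difference of -0.05, beside 0.03 over all genes.

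Trp53i11 was at 132, 120 and 160 CPM in WT and 69.9, 85.2 and 113 CPM in KO, so that the highest KO library was under the lowest WT library, as held for 6.64% of all genes. The KO to WT ratio was 0.530, 0.712 and 0.708 in numbers 1, 2 and 3. The log2 difference was -0.63 (SE 0.20, limma adjusted p = 0.443, and 0.00858 with the block). It passed in the blocked fit without any 1 pair (adjusted p = 0.00239 to 0.0465) and with median centring or quantile normalization (0.00706 and 0.0115). In mock cells the same gene had ratios of 0.958, 0.788 and 1.27.

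Phlda3 was at 219, 187 and 197 CPM in WT and 299, 283 and 231 CPM in KO after doxorubicin, with every KO library above every WT library, as held for 9.7% of all genes. The ratio was 1.36, 1.51 and 1.17 by number. The log2 difference was 0.42 (SE 0.14, limma adjusted p = 0.443, and 0.0168 with the block), and the blocked call was lost without pair 1 (adjusted p = 0.0896). Pml was at 228, 169 and 329 CPM in WT and 169, 153 and 256 CPM in KO, where the groups overlapped but KO was lower in each number, with ratios of 0.743, 0.900 and 0.779. Its log2 difference was -0.31 (SE 0.28, adjusted p = 0.600, and 0.0299 with the block), and the blocked call was lost without pair 1 or pair 3 (0.162 and 0.113). Interferon-stimulated genes then summed to 1045, 808 and 895 CPM in WT and 1011.5, 563 and 1068 CPM in KO, over 19 listed genes. Their part in the difference of Pml was not tested.

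The other 7 genes did not pass with or without the block. Plk2 was lower in KO in each number, with ratios of 0.755, 0.929 and 0.837 (log2 -0.26, SE 0.19, limma adjusted p = 0.552, and 0.0584 with the block). It passed in the blocked fit with median centring (0.0436) and without pair 2 (0.0244). Dcxr, Zmat3 and Sulf2 were again higher in KO in each number, with log2 differences of 0.27, 0.13 and 0.07, as were 34.2% of all genes, while 27.6% were lower in each. Plk3 was higher in KO in number 1 and lower in numbers 2 and 3, with ratios of 1.10, 0.677 and 0.702. Abhd4 had a log2 difference of -0.17 (95% interval -0.58 to 0.24) and Ak1 of 0.06 (-0.25 to 0.36).

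**Figure D4:**
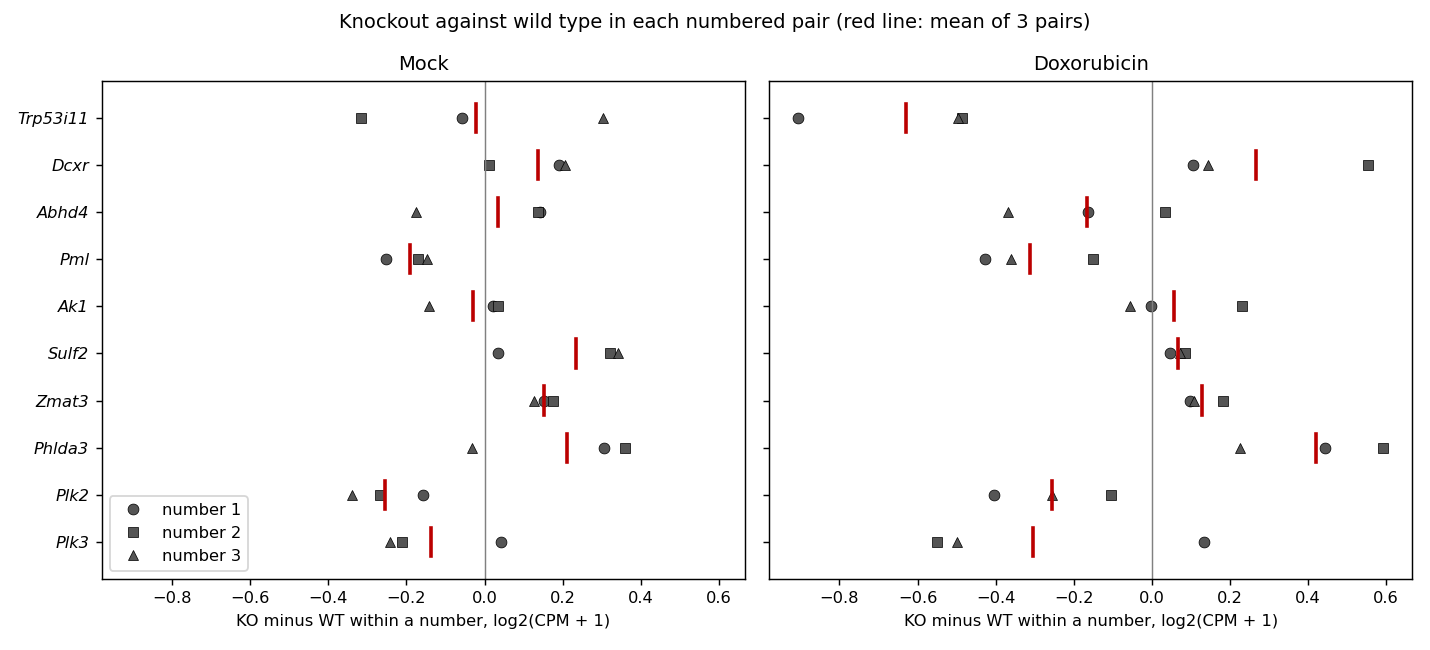
Difference between KO and WT within each replicate number on the log2(CPM + 1) scale, in mock (left) and doxorubicin (right) libraries, with symbols for the numbers and red lines for the mean of 3. After doxorubicin Trp53i11 lies below 0 and Phlda3 above 0 in all 3 numbers, while in mock each of these genes has numbers on both sides of 0.

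Among other p53 targets the blocked fit of doxorubicin-treated cells called 4 higher and 7 lower in KO of 42 measured. That was again near the background of 11.8% higher and 13.6% lower over all genes. The 3 highest were Thbs1 (6760 ± 1197 to 10031 ± 1470 CPM), Bbc3, which encodes the BH3-only protein Puma (19.6 ± 2.04 to 26.6 ± 2.16 CPM), and Lif (166 ± 48.1 to 224 ± 84.3 CPM). The 3 lowest were Ndrg1, a stress-responsive gene (147 ± 72.6 to 64.8 ± 18.7 CPM), Fdxr, which encodes ferredoxin reductase (43.5 ± 15.7 to 21.9 ± 8.98 CPM), and Ppm1d, a phosphatase that acts on p53 and its kinases (47.6 ± 9.35 to 31.1 ± 5.98 CPM). In mock cells the blocked fit called Sfn higher (log2 0.81, adjusted p = 0.0362) and Cdkn1a lower (log2 -0.85, adjusted p = 0.0223) of 42. Of all genes 0.92% were called in that fit. Trp53 itself did not pass between genotypes in either treatment (log2 0.19 in mock and -0.36 after doxorubicin, limma adjusted p = 0.978 and 0.458, and 0.136 and 0.0522 with the block).

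Whether the response to doxorubicin differed between genotypes was tested as the interaction in the fit of all 12 libraries. Among 10292 genes limma gave 0 calls (0%) in either fit, and 468 genes without the block and 1610 with it had an unadjusted p under 0.05. Among the 10 genes 0 had an unadjusted p under 0.05 in either fit. Trp53i11 rose by 0.61 log2 units less in KO than in WT, but the 95% interval ran from -1.39 to 0.18 (adjusted p = 0.922, and 0.428 with the block). For Phlda3 the response in KO was larger by 0.21 (interval -0.15 to 0.57, adjusted p = 0.922, and 0.483 with the block), so its call in KO and not in WT is no sign of a difference between them. For Plk2 the 95% interval of the interaction ran from -1.005 to 1.004 without the block and from -0.54 to 0.54 with it.

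Some of the 10 genes had the same replicate number as the lowest or the highest library in all 4 groups. Number 2 was the lowest library in all 4 groups for Dcxr, Abhd4, Sulf2 and Pml, a pattern held by 12.2% of all genes. Number 3 was the highest in all 4 groups for Dcxr and Zmat3 (8.9% of all genes), and number 2 for Plk2 (12.7%). Number 1 or number 3 was the lowest in all 4 groups for 0 of the 10, as held for 4.56% and 13.7% of all genes. Number 1 was the highest for 0 of the 10 (8.16% of all genes). The share of all genes with any of these patterns was not computed. What the number marks is not stated in the labels.

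For each of the 10, the other gene whose log2(CPM + 1) values over the 12 libraries were most like it was named by Pearson r, as a description without a test, since the libraries share 4 groups and 3 numbers. Dcxr was closest to Pidd1, listed under its older name Lrdd, which encodes a death-domain protein induced by p53 (r = 0.995), Abhd4 to Cdip1, a p53-induced gene of cell death (r = 0.995), and Zmat3 to Ephx1, the microsomal epoxide hydrolase gene (r = 0.980). Trp53i11 was closest to the phosphatase gene Dusp28 (r = 0.995), at 3.87 and 3.07 CPM in WT and KO mock and 42.9 and 28.4 CPM after doxorubicin. The mean of Dusp28 was lower in KO in both treatments, whereas the mock means of Trp53i11 were nearly equal (11.8 CPM in WT and 11.4 CPM in KO). Ak1 was closest to Aprt, a purine salvage gene (r = 0.991), Pml to D430042O09Rik (r = 0.989) and Sulf2 to Ank3, the ankyrin G gene (r = 0.984). The likeness was looser for Phlda3, whose nearest was the tendon transcription factor gene Scx (r = 0.949), for Plk2, nearest to the tubulin gene Tuba1c (r = 0.943), and for Plk3, nearest to Olfm1 (r = 0.917).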

How the data were processed

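RNA was sequenced from 12 libraries, made with a stranded mRNA kit per the labels' protocols. Tools listed, per the submitters' processing notes, were HTSeq, TopHat2 2.0.6 and edgeR, and the build was NCBIM37, with no role given for any. The authors deposited CPM per gene in 2 tables, 1 per treatment, with 10648 and 11125 genes, of which 10292 were in both. In each table the WT values of every gene exceeded 2 CPM, and genes low in WT were not analysed here. All 10 genes passed. Values were whole multiples of 1 read over 1 total per library (100% within 0.001 of a read), so both tables were taken to share a scale. Each treatment had its own table, so a difference between the tables cannot be told apart from a response to doxorubicin.

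Limma 3.58.1 in R 4.3.3 (lmFit, eBayes with trend) was run on log2(CPM + 1) over all genes with no filter and Benjamini-Hochberg adjustment. The genotypes were compared inside each table, and treatments and the interaction were fitted on all 12 libraries in 4 groups. Log2 differences on this scale understate the change of low genes. The code was tested on simulated data. The replicate block was the alternative fit. Deviations of same-numbered libraries from their group means correlated at 0.712 to 0.856 between genotypes in mock, 0.668 to 0.781 after doxorubicin and 0.394 to 0.728 between treatments, so the numbers were taken as pairs. The pairing comes from these correlations and the shared numbers, as no label says what a number marks. Count-based tests were not run, since the unit is CPM and the reads recovered from it were not accepted as counts. Other alternatives were a pseudocount of 0.5, a minimum mean of 5 CPM, quantile normalization, median centring and leaving out each library. Gene names were matched to GRCm38.p6, older names included.

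The genes and lists were chosen with earlier results of these data known. The genes named beyond the 10 followed a rule: of the other p53 targets the 3 highest and 3 lowest called per comparison, and for each of the 10 the most similar gene.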

Additional observations from a re-analysis of the deposited data

How the results depend on the processing

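The count of the 10 genes called in KO against WT after doxorubicin was 0 without and 3 with the replicate block, 3 with the block and quantile normalization, 4 with the block and median centring (both added after seeing the data), and 1 to 4 with 1 pair also left out (2 without pair 3). In mock cells the blocked count was 0, and 0 to 4 with a pair left out. The block changed no other call among the 10. With 1 library left out, the doxorubicin response was called for 5 to 7 genes in WT (5 without WT doxorubicin number 3) and 5 to 8 in KO (5 without KO doxorubicin number 1). Trp53i11, Dcxr, Abhd4, Ak1 and Pml kept their doxorubicin calls in both genotypes in each of those 12 fits. A pseudocount of 0.5 and a minimum mean of 5 CPM moved no count. The planned tests on recovered whole reads (edgeR) were not run, because the reads recovered from the CPM values were not accepted as counts.

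Directions that turned all belong to differences that did not pass, and the cause was not tested. For Abhd4 in KO against WT mock the log2 difference was -0.010 with quantile normalization and -0.028 with median centring, blocked or not. The interaction of Zmat3 was 0.015 and 0.0034, and that of Plk2 0.016 and 0.026, under the same settings. With 1 pair left out of the blocked fit, the mock difference ranged from -0.020 to 0.14 for Abhd4 (-0.017 without pair 2), -0.19 to 0.12 for Trp53i11 and -0.061 to 0.027 for Ak1, the treated difference of Ak1 from -0.029 to 0.11, the response of Plk2 in KO from -0.0084 to 0.49, and the interactions of Dcxr and Plk2 from -0.074 to 0.24 and -0.081 to 0.12. With 1 library left out, the mock difference ranged from -0.28 to 0.18 for Trp53i11, -0.13 to 0.47 for Dcxr, -0.081 to 0.13 for Abhd4, -0.10 to 0.085 for Ak1, -0.57 to 0.099 for Plk2, -0.34 to 0.076 for Plk3 and -0.013 to 0.43 for Sulf2. The treated difference then ranged from -0.32 to 0.0015 for Abhd4, -0.045 to 0.15 for Ak1 and -0.13 to 0.27 for Sulf2, and the response of Plk2 from -0.059 to 0.47 in WT and -0.10 to 0.46 in KO. The interaction ranged from -0.028 to 0.18 for Ak1, -0.20 to 0.40 for Dcxr, -0.35 to 0.31 for Plk2, -0.38 to 0.031 for Plk3, -0.35 to 0.13 for Pml, -0.37 to 0.081 for Sulf2 and -0.15 to 0.089 for Zmat3.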
